A study of Mus musculus with 2 samples.

Results

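Malat1, Neat1, Miat and Snhg11 are 4 genes whose RNAs work, as far as is known, without being translated, and they were followed here through single-cell transcriptomes of mouse pancreatic islets. They were chosen by name, with earlier results of these cells known, and all 4 had a row in the tables, among 33038 genes listed in either of 2 libraries. Their levels are therefore given as a description, without a test. The libraries came from 1 group of islets labelled control, of C57BL/6J mice at 8 weeks of age. They were made with RevGel-seq, where each cell is linked to a barcoded bead inside a gel and its polyA RNA caught on polyT. According to the methods of the study they are technical replicates of 1 islet preparation with 10000 input cells each, so the spread between them holds no difference between animals.

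Long noncoding RNAs act as RNA, often by holding proteins together at a place in the nucleus. Malat1 RNA gathers in nuclear speckles, the stores of splicing factors, and is among the most abundant nuclear RNAs of mammalian cells. Neat1 is the scaffold of paraspeckles, bodies built by its long form with the proteins Nono, Sfpq and others, while its short form is polyadenylated and does not build them. Miat, also called Gomafu, is a nuclear RNA known from neurons and retina that binds the splicing factor Sf1. Snhg11 belongs to the host genes whose introns carry small nucleolar RNAs, and it is known mainly from neurons and neuroendocrine tissue. In the islet, beta cells make insulin, alpha cells make glucagon (Gcg), delta cells make somatostatin (Sst) and gamma cells make pancreatic polypeptide (Ppy).

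Malat1 and Neat1 are neighbours on chromosome 19 of GRCm38, on the minus strand, at 5795690 to 5802672 and at 5824708 to 5845478, with 22035 bases between them. Miat lies on chromosome 5 at 112213228 to 112229395, also on the minus strand, and Snhg11 on the plus strand of chromosome 2 at 158375638 to 158386145. In GENCODE M21, Malat1, Neat1 and Miat are lincRNA genes, and Snhg11 is entered as protein_coding, against its usual description. Of the transcripts drawn on here, those of Malat1 and of the long Neat1 form have 1 exon, the short Neat1 form has 2, Miat has 7 and Snhg11 has 5. Another 12 annotated genes overlap the 4, of which 2 were listed in the tables, with at most 1 UMI (unique molecular identifier, 1 captured RNA molecule) in a library.

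Since capture used polyT, stretches near the annotated 3′ ends are given, and the last line is from within Miat. They do not show where RNA was caught. The first 2 lines mark in capitals the 16 bases that the ends of Malat1 and of the long Neat1 form share, and in Malat1 also a run of 12 A that lies 298 bases before the annotated end. The next 3 lines mark the polyadenylation signal AATAAA, which was found in the last 50 bases of Malat1, of the short Neat1 form and of Snhg11, and in 26.6% of all transcripts of 50 or more bases. The last line marks 3 of the 6 copies of TACTAAC in Miat, the repeat that binds Sf1.
Malat1, bases 6604 to 6760: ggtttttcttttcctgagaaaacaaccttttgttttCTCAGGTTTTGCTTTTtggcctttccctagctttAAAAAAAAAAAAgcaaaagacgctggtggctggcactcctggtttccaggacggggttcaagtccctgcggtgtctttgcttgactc
Neat1 long form, bases 20652 to 20771: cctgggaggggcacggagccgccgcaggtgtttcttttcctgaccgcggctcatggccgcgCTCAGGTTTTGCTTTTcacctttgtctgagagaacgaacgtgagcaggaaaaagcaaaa
Malat1, bases 6904 to 6983: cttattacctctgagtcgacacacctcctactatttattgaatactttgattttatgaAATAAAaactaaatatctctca
Neat1 short form, bases 2925 to 3004: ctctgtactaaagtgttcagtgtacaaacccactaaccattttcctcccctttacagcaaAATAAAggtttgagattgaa
Snhg11, bases 5785 to 5864: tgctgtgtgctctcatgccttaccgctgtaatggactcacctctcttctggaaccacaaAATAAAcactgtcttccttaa
Miat, bases 5166 to 5246: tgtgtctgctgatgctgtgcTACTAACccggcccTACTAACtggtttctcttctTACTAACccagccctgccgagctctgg

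All letters are from the GENCODE M21 transcripts of GRCm38, read 5′ to 3′ on the transcript strand alone. A run of 12 A (AAAAAAAAAAAA) was found in 19.2% of the 3994 transcripts from 20% shorter to 25% longer than that of Malat1, and in none of the transcripts shown for Neat1, Miat and Snhg11. TACTAAC occurred at least once in 18.4% of the 2055 transcripts within the same limits around the length of Miat, and 6 or more times in 0.0973% of them. The long form of Neat1 held 1 copy, and Malat1, Snhg11 and the short form of Neat1 held none. The tables give 1 count per gene, so the forms of Neat1 could not be told apart.

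The libraries held 735 and 748 cells with 15931154 and 17440292 UMIs, the median cell had 17340 and 18922, and the libraries shared 0 barcodes. Cells were grouped by which of insulin (Ins1 and Ins2 added), Gcg, Sst and Ppy reached 1% of their UMIs. The 7 groups with at least 20 cells in each library are compared, and a level is the number of UMIs of a gene per 1000000 UMIs that are not of the 5 hormone genes, summed over a group's cells in 1 library. Beta cell markers fixed for this work (Iapp, Slc2a2, Nkx6-1, Mafa, Ucn3) held 3.24% and 3.14% of UMIs in insulin-only cells, alpha cell markers 3.45% and 3.52% in Gcg-only cells, and delta cell markers 0.607% and 0.593% in Sst-only cells, which also held 1.36% and 1.38% of beta cell markers. No marker list was fixed for gamma cells. The methods name male mice, but Xist, which is transcribed from an inactive X chromosome, had 11850 and 12862 UMIs in 701 and 706 cells, and the 3 Y-linked genes listed had 1 UMI in each library. These counts go against the stated sex, and no result below uses it.

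Malat1 was found in all 735 cells of library 1 and all 748 of library 2, with 209839 and 234035 UMIs, or 1.32% and 1.34% of all UMIs. Its level was highest in Ppy-only cells, at 26205 in library 1 and 31115 in library 2 (mean 28660 ± 3471, SD, n = 2). Sst-only cells followed with 20138 and 23342, and cells with Sst and Ppy had 19946 and 20854. Insulin-only cells had 18890 and 16991, cells with Gcg and Ppy 17278 and 17695, and Gcg-only cells 15693 and 16784.

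The lowest level among the 7 groups was that of cells without a hormone, at 10541 and 8677. Within that group, 60 cells with endothelial markers had 7689 and 7984, and 82 cells with leukocyte markers had 9955 and 10867. In the order of the groups, both libraries of a group lay above both of the next, with the exceptions of Sst-only against Sst and Ppy and of insulin-only against Gcg and Ppy, whose values overlapped. Malat1 was 1.76 ± 0.13 times as high in Ppy-only as in Gcg-only cells (SD, n = 2) and 1.61 ± 0.314 times as high as in insulin-only cells.

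Ppy-only cells were also the deepest of these groups, with a median of 28785 and 30340 UMIs against 16414 and 19534 in Gcg-only cells and 19642 and 17170 in insulin-only cells. Among cells of 10000 to 20000 UMIs alone, the Malat1 level in Ppy-only cells was 26853 and 26385, from 14 and 9 cells. Gcg-only cells in that range had 13774 and 15364, and insulin-only cells had 17643 and 15470. In this range the log2 ratio of Ppy-only to insulin-only cells was 0.61 and 0.77, against 0.47 and 0.87 over all depths, and that of Ppy-only to Gcg-only cells was 0.96 and 0.78, against 0.74 and 0.89. Median depth still differed within it in library 1, at 16920 UMIs in Ppy-only and 14112 in Gcg-only cells, and the range was chosen after seeing the data.

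The choice of total moved the order of Malat1. Hormone UMIs made up 37.6% and 41.2% of all UMIs for insulin in insulin-only cells and 34.9% and 35.3% for Ppy in Ppy-only cells, but only 8.88% and 9.41% for Sst in Sst-only cells. Per 1000000 UMIs of any gene, Malat1 had 18212 and 20975 in Sst-only cells, above 16954 and 20036 in Ppy-only cells, and the libraries of these groups overlapped. On that scale Gcg-only cells, at 11849 and 12510, lay above insulin-only cells, at 11749 and 9963, which reverses their order. A group's share of hormone RNA and the amount of Malat1 RNA in a cell cannot be told apart from these ratios.

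**Figure D1:**
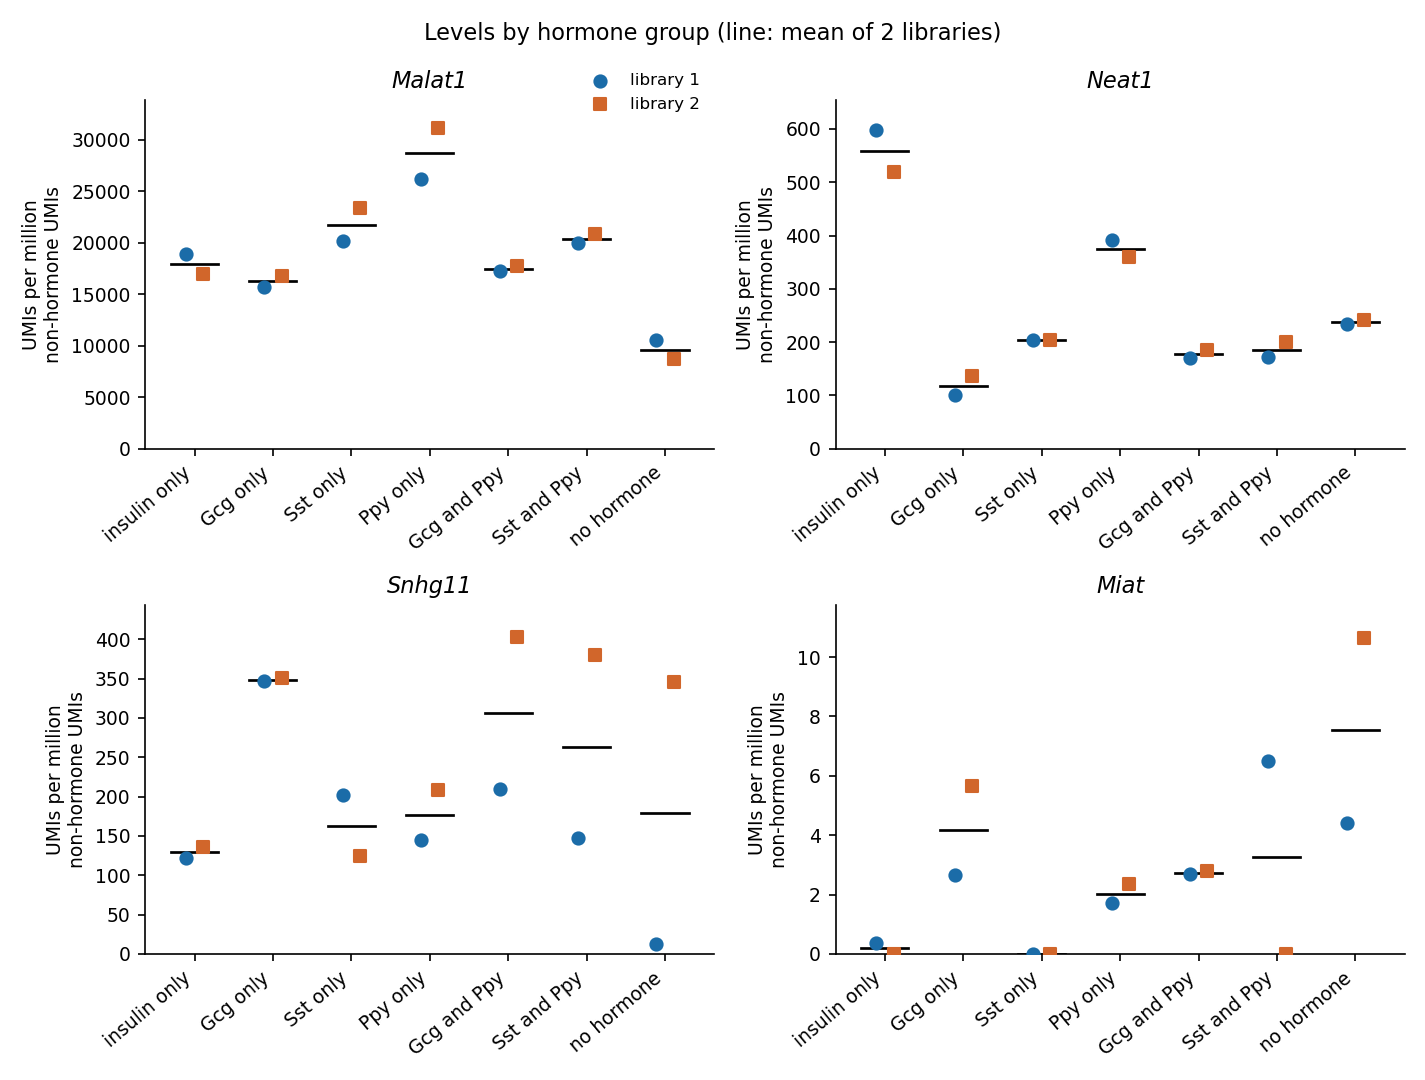
Level of each of the 4 RNAs (y axis, UMIs per 1000000 non-hormone UMIs, from 0) in the 7 hormone groups (x axis), with 1 point per library and a line at the mean of the libraries. Ppy-only cells hold the highest Malat1 points, insulin-only cells the highest Neat1 points, and the libraries differ widely for Snhg11 in cells without a hormone, at 13.2 and 346.

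Neat1 followed another order. It had 3377 and 3538 UMIs, found in 496 and 533 cells. Insulin-only cells had the highest level, 598 and 519 in the libraries (mean 559 ± 56.2, SD, n = 2), and Gcg-only cells the lowest, 101 and 136 (118 ± 24.8). Ppy-only cells came second with 391 and 359.

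Between these ends, cells without a hormone had 235 and 241, Sst-only cells 204 and 204, cells with Sst and Ppy 171 and 201.1, and cells with Gcg and Ppy 169 and 185. Of the steps in this order, only that from Sst and Ppy to Gcg and Ppy showed overlapping libraries. Which step overlapped depended on the total. With UMIs of any gene as the total, Ppy-only cells had 253 and 231 and cells without a hormone 234 and 240, which overlapped. On that scale cells with Sst and Ppy, at 146 and 169, lay above cells with Gcg and Ppy, at 121 and 138. Insulin-only cells stayed highest and Gcg-only cells lowest of the compared groups. The level in insulin-only cells was 5.95 and 3.82 times that in Gcg-only cells, while the Malat1 ratio of the same groups was 1.2 and 1.01. Among cells of 10000 to 20000 UMIs the Neat1 levels were 633 and 402 in insulin-only cells and 84.8 and 121 in Gcg-only cells.

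Detection of Neat1 in single cells, pooled over the libraries, was also high in insulin-only and low in Gcg-only cells. At least 1 Neat1 UMI was present in 333 of 372 insulin-only cells (89.5%, 95% exact Clopper-Pearson interval 85.9% to 92.4%). Among Gcg-only cells it was present in 148 of 356 (41.6%, 36.4% to 46.9%). By library the shares were 92.3% and 86.8% in insulin-only cells and 35.7% and 47.7% in Gcg-only cells. Both Gcg-only values lay outside the pooled interval, which treats cells as independent and leaves out the spread between libraries. After each cell had been thinned to 4000 UMIs of any gene, the pooled shares were 58.3% in insulin-only and 18.8% in Gcg-only cells. The ends of the order did not hold in library 2, where 88.0% of cells without a hormone and 86.8% of insulin-only cells held a UMI. After thinning, that library had 54.4% in Ppy-only and 54.2% in insulin-only cells, and 21.7% in Sst-only and 24.7% in Gcg-only cells. Endothelial-marked and leukocyte-marked cells had 180 ± 23.4 and 287 ± 17.0 (SD, n = 2), so no group of cells in these libraries lacked Neat1 and could serve as a measure of free RNA.

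Snhg11 was carried by fewer cells. Its 2070 and 3679 UMIs lay in 241 and 259 cells. Gcg-only cells had 347 and 351, with 141 of 356 cells (39.6%, interval 34.5% to 44.9%) holding a UMI, and insulin-only cells had 123 and 136, with 117 of 372 cells (31.5%, 26.8% to 36.4%). The level in Gcg-only cells was 2.83 and 2.58 times that in insulin-only cells.

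All other groups varied more between the libraries. Cells with Gcg and Ppy had 210 and 403, cells with Sst and Ppy 148 and 379, Ppy-only cells 145 and 208, and Sst-only cells 202 and 124. No neighbours in the order of the 7 groups were separate in both libraries. The level in Gcg-only cells was above that in insulin-only, Sst-only and Ppy-only cells in each library. Shares of cells with a UMI did not follow it: they were 42.9% and 36.2% in Gcg-only, 54.3% and 34.8% in Sst-only, 25.9% and 35.3% in Ppy-only, and 29.1% and 33.7% in insulin-only cells. Endothelial-marked cells held 1 Snhg11 UMI in 60 cells, at a median depth of 14738 and 16441 UMIs, and leukocyte-marked cells 4 in 82 cells at 10511 and 11261. These shares, 1.67% and 4.88% of cells, lay below those of the endocrine groups. Free RNA was not measured, and its part in any group was not tested.

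Cells without a hormone had 13.2 in library 1 and 346 in library 2. In library 2, 2 cells carried 434 and 287 Snhg11 UMIs, together 19.6% of the library's count, with 177513 and 96154 UMIs in all. Without the 2 richest cells of each library the levels were 5.18 and 13.3. The leading genes of both deep cells by fold included Nos1, a nitric oxide synthase, the peptides Vip and Npy, and Stmn2, Tubb3 and Sncg, which are known from neurons. No neuron markers had been fixed, and these cells were given no name.

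Miat was nearly absent. It had 27 and 47 UMIs, found in 11 and 13 cells. The same deep cells of library 2 held 12 and 11 of them, 48.9% of that library's count, and cells without a hormone held 30 of all 74. Insulin-only cells had 1 UMI in 372 cells, Gcg-only cells 23 in 10 of 356 cells, and Sst-only cells 0 in 58 cells, where 3 UMIs would have given a level of 6.59 and 10.1 in the libraries.

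Pooled over the libraries, Miat was 21.5 times as high in Gcg-only as in insulin-only cells. The 95% counting interval of 3.48 to 884 rests on the single UMI of the insulin-only cells. It also takes each UMI as an independent draw, although the 23 of Gcg-only cells lay in 10 cells. The interval is therefore too narrow and is no test of a difference. One Gcg-only cell held 7 of the 23, and its leading genes, Igfbp5, Kdr and Flt1, include endothelial markers. Without that cell 16 remained, and the ratio and its interval were not computed again. Mean levels of the 4 remaining groups lay between 2.03 and 7.53, and the libraries overlapped for most neighbours in the order. At this depth no order of the groups was detectable for Miat.

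The 7 rarer hormone combinations, with 2 to 14 cells in a library and 93 cells in all, held 0 Miat UMIs. Their pooled levels were 20257 for Malat1, 226 for Neat1 and 198 for Snhg11, within the range of the larger groups. Single combinations in 1 library ran from 17187 to 25377 for Malat1, 0 to 468 for Neat1 and 30.6 to 1647 for Snhg11. The lowest Neat1 value and the highest Snhg11 value came from the same 2 cells with insulin and Gcg in library 2.

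Snhg11 was spread unevenly over the cells of a group. In Gcg-only cells 57.1% and 63.8% of cells held no UMI, while the richest 10% of cells held 58.8% and 66.7% of all Snhg11 UMIs. After thinning to 4000 UMIs per cell, the variance over the mean (Fano factor, about 1 for random sampling) was 5.44 and 6.63, higher than in 99.8% of the genes with a level of at least 50 in each library, whose median was 1.14 and 1.13. Malat1 (11.6 and 15.7) and Neat1 (3.02 and 1.82) were also above at least 97.5% of those genes. Those genes were not matched on mean count, and the factor of an unevenly spread gene rises with its mean. The mean thinned count was 46.5 and 49.6 UMIs for Malat1 against 1.31 and 1.07 for Snhg11. The factors therefore do not rank these RNAs by unevenness. Positive Gcg-only cells held a median of 7 and 9 Snhg11 UMIs.

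For Neat1 the picture differed by group. The richest 10% of insulin-only cells held 33.9% and 36.0% of its UMIs, close to the 29.2% and 29.3% for Malat1, but in Gcg-only cells the richest 10% held 71.6% and 55.4%. For Malat1 that share was 26.7% and 28.8% in Gcg-only cells, while its Fano factor was 28.6 and 12.4 in insulin-only cells against the 11.6 and 15.7 of Gcg-only cells. A share of UMIs in few cells rises as a gene becomes rare, and the mean thinned Neat1 count was 0.275 and 0.414 UMIs per Gcg-only cell against 1.55 and 1.13 per insulin-only cell.

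**Figure D2:**
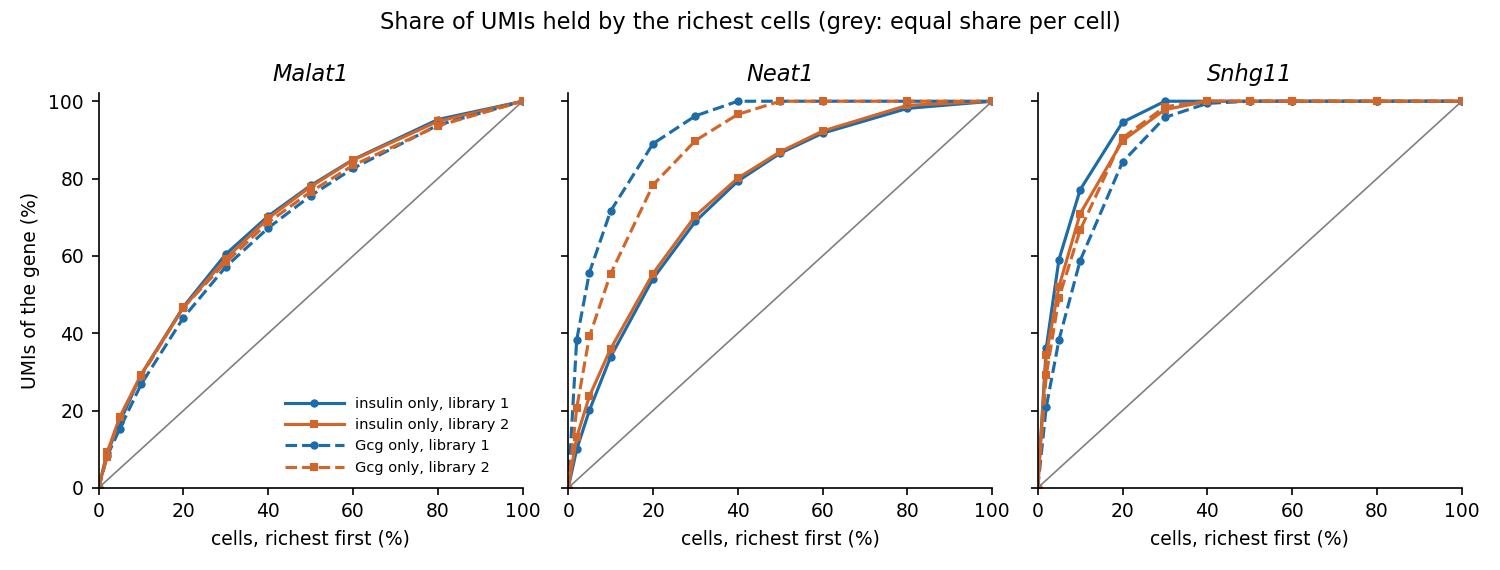
Share of a gene's UMIs (y axis, %) held by the richest cells (x axis, % of cells, richest first) for Malat1, Neat1 and Snhg11 in insulin-only (solid) and Gcg-only (dashed) cells of each library. The grey line is an equal share per cell. Snhg11 reaches 58.8% to 77.1% at the richest 10% of cells in these groups, while Malat1 reaches 26.7% to 29.3%.

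Within Gcg-only cells the Malat1 level was higher in deep cells. Cells were split at the median depth of their library. In library 1 the shallower cells (median 12117 UMIs) had 14093 and the deeper cells (median 23800) 16453. In library 2 the values were 15271 and 17498. The log2 ratio of deeper to shallower cells was 0.22 and 0.20, and the Spearman correlation across cells was 0.159 over 182 cells and 0.122 over 174 cells, which share a library and its depth range. With each cell thinned to 4000 UMIs, so that deep cells no longer weigh more in the sum, the mean log2 ratio was 0.0899 in place of 0.21. In 4 bins of rising depth and nearly equal cell number the level was 15075, 13409, 16170 and 16633 in library 1, without a steady rise, and 14694, 15654, 16496 and 18076 in library 2.

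The mitochondrial share, the part of a cell's UMIs that comes from the mitochondrial genome, moved with Malat1 as well. Gcg-only cells below the median share had 14403 and 14634, and those above it 16722 and 18454, a log2 ratio of 0.22 and 0.33. The step lay at the bottom: the lowest of 4 bins had 12713 and 12877, and the other bins ran from 16018 to 18790. Insulin-only cells showed the same direction, with 16709 below and 20223 above the median share in library 1, and 15987 and 17605 in library 2. The other 4 groups with a hormone did so too in both libraries, but cells with Sst and Ppy were nearly level in library 2. There the log2 ratio was 0.03 and the Spearman correlation -0.00791. Cells without a hormone ran the other way, from 14097 to 7977 in library 1 and from 11035 to 7308 in library 2, and leukocyte-marked cells among them from 13221 to 7505 and from 14245 to 8308. Across leukocyte-marked cells the Spearman correlation with mitochondrial share was -0.429 in library 1 but 0.00889 in library 2. The fall of the summed level in library 2 was thus not seen cell by cell. Their correlation with depth was -0.424 and -0.214, and the part of depth was not tested. Gcg-only cells with the higher share were also deeper, with a median of 18905 against 15305 UMIs in library 1 and 20871 against 17697 in library 2, and the part of depth in this difference was not tested. Mitochondrial shares were low throughout, with medians of 0.574% and 0.582%.

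For Neat1 and Snhg11 the direction within Gcg-only cells depended on the library or on the processing. The Neat1 level was 90.1 below and 109 above the median mitochondrial share in library 1, 89.9 and 171 in library 2, and by depth 101.6 and 100.04 in library 1 or 123 and 142 in library 2. Thinned cells gave log2 ratios of -0.49 and 0.69 for Neat1 by mitochondrial share, in opposite directions in the libraries. Snhg11 had 409 in shallower and 317 in deeper cells of library 1, and 254 and 396 in library 2. By mitochondrial share it had 202 and 462 in library 1 and 384 and 325 in library 2, again in opposite directions. With thinning its log2 ratio by mitochondrial share was 1.55 and 0.14, and with a hormone threshold of 5% it was 0.68 and 0.29. Miat had 1 UMI in cells with the lower and 22 in those with the higher mitochondrial share, and 6 and 17 in shallower and deeper cells. These are counts, and deeper cells hold more UMIs of any gene. As levels, only library 2 gave a ratio by depth (log2 -0.35) and only library 1 by mitochondrial share (2.26).

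**Figure D3:**
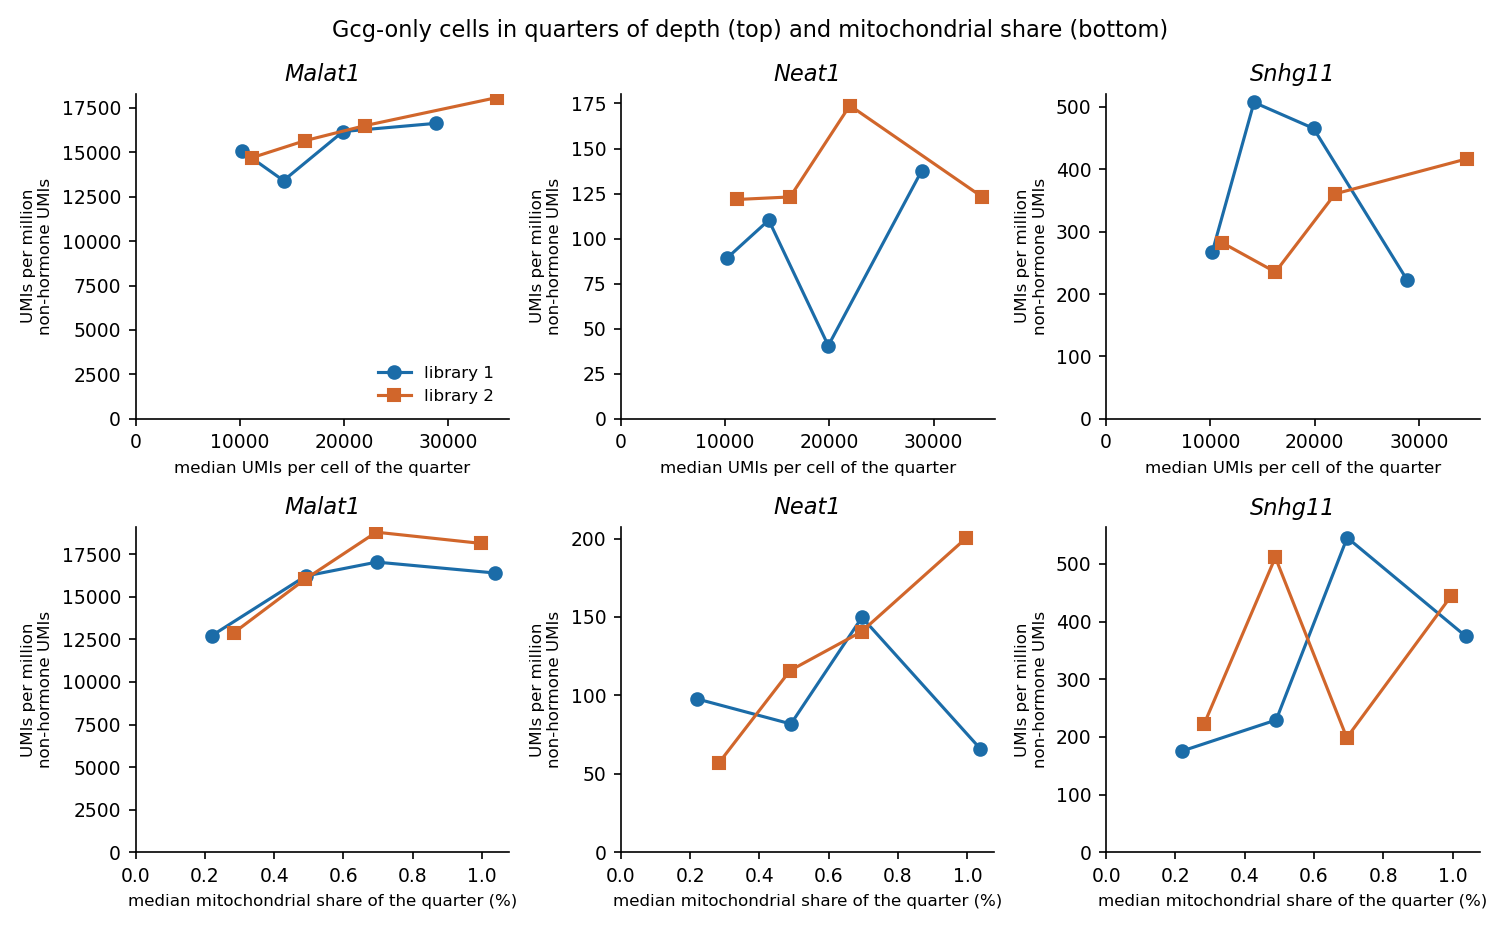
Levels (y axis, UMIs per 1000000 non-hormone UMIs, from 0) of Malat1, Neat1 and Snhg11 in 4 bins of Gcg-only cells, at the median depth (top, x axis in UMIs per cell) or median mitochondrial share (bottom, x axis in %) of each bin, with 1 line per library. For Malat1 the lowest bin of mitochondrial share lies below the others in both libraries, at 12713 and 12877, while the lines of Neat1 and Snhg11 cross.

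Genes whose pattern was most like that of Malat1 over the 14 sums (7 groups in 2 libraries), by Pearson r of log2(level + 10) among 4556 genes with a mean level of at least 50, were Luc7l2 (r = 0.971), a factor of the spliceosome, Grb14 (0.939), Tor1b (0.929), Maged2 (0.924) and Cobll1 (0.920). For Neat1 they were Pank3 (0.878), Sdf2l1 (0.872), Slc35b1 (0.870), Bace2 (0.867) and P4hb (0.857). Sdf2l1 and P4hb encode a chaperone partner and protein disulfide isomerase of the endoplasmic reticulum, and Slc35b1 a carrier in its membrane. For Snhg11 they were Vat1l (0.874), Map1b (0.838), Snap25 (0.823), Agap3 (0.809) and Kifap3 (0.80), of which Map1b binds microtubules and Snap25 serves vesicle fusion. The sums are not independent, since each of the 7 groups enters with 2 libraries of the same preparation and groups share a library. The Snhg11 values include the deep cells described above.

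Across the 356 Gcg-only cells, among 3272 genes with a UMI in at least 50% of them in each library, likeness was weak. Malat1 ranked highest with Arglu1 (mean Spearman correlation 0.325), Xist (0.303), Utrn (0.291), Rian (0.286) and Ddx17 (0.285). Xist and Rian are themselves long noncoding RNAs, and Ddx17 is an RNA helicase. The highest values of Neat1 were 0.192 to 0.208 (Fosb, Atf3, Xbp1, Pkd2 and Prox1), and all those of Snhg11 and Miat were at most 0.188. Neat1 had 647 and Snhg11 1900 UMIs in these cells, and in counts this sparse such values are no finding.

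The genes of proteins that share bodies or processing with these RNAs were compared between groups by their RNA. The test was edgeR's quasi-likelihood test on sums per group and library, each of the 4 single-hormone groups against the mean of the others. Protein amounts were not measured, and proteins called higher or lower below are so in RNA. The 4 comparisons share their sums, and p-values measure the spread between libraries of 1 preparation. Of 14955 genes, 23.3% passed an adjusted p of 0.05 for insulin-only cells (13.5% higher, 9.83% lower), 15.7% for Gcg-only (8.82% and 6.89%), 10.4% for Sst-only (6.16% and 4.25%) and 9.6% for Ppy-only cells (5.94% and 3.66%). Without TMM scaling the split moved from 2015 higher and 1470 lower to 1654 and 1824 for insulin-only cells and from 921 and 635 to 1178 and 400 for Sst-only cells. For Sst-only cells DESeq2 gave 896 and 363, and the median of all genes shifted from -0.04 to 0.08 without TMM. Malat1, Neat1 and Snhg11 entered this fit, Miat had too few counts, and no p is given for them.

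Of 31 nuclear speckle and splicing proteins, the surroundings of Malat1 RNA, 9 were lower and 1 was higher in insulin-only cells (median log2 fold -0.18, against 0.03 over all genes). In Gcg-only cells 6 were higher and 0 lower (median 0.17 against 0.04, and 4 higher and 1 lower with DESeq2), in Ppy-only cells 9 were higher and 2 lower (0.10 against 0.02), and in Sst-only cells 2 were lower. The named members moved as follows. Srsf5, a splicing factor of the SR family, had 218 and 193 in insulin-only cells against 332 to 593 in the other single-hormone groups (log2 fold -1.12 ± 0.11 SE, edgeR adjusted p = 3.51e-06), and it was higher in Gcg-only (0.65 ± 0.10, 0.000363) and Ppy-only cells (0.84 ± 0.10, 7.77e-05).

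Clk1, a kinase of SR proteins, had 197 and 176 in insulin-only cells against 246 to 461 (log2 fold -0.80 ± 0.14 SE, adjusted p = 0.000449) and was higher in Gcg-only cells (0.59 ± 0.12, 0.00378). U2af2, which binds the 3′ splice site, was higher in Ppy-only cells (0.64 ± 0.12, 0.00334) and lower in Sst-only cells (-0.57 ± 0.17, 0.0431), as was Srsf6 (-0.46 ± 0.13, 0.0371), and without TMM scaling 0 of the list passed in Sst-only cells. The list did not move in 1 direction in Ppy-only cells, where Malat1 was highest. Rbm25 had 569 and 542 there against 711 to 801 (-0.44 ± 0.09, 0.00375) and Luc7l3 had 412 and 448 against 551 to 705 (-0.46 ± 0.10, 0.00585). In insulin-only cells Rbm25 was the one higher member (0.28 ± 0.08, 0.0196), a call that was lost without TMM scaling.

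The RNAs of paraspeckle proteins, 15 in all, did not follow Neat1 as a list. Insulin-only cells, with the highest Neat1 level, had 4 members lower and 2 higher (median log2 fold -0.31 against 0.03), and 7 lower and 2 higher without TMM scaling. Nono, a core paraspeckle protein, had 95.02 and 72.7 there against 111 to 136 (log2 fold -0.43 ± 0.12 SE, edgeR adjusted p = 0.0157), and Hnrnpa1 had 58.5 and 44.6 against 66.6 to 108 (-0.72 ± 0.17, 0.00618). Rbm14 was higher (44.3 and 48.9 against 21.3 to 40.7, 0.67 ± 0.18, 0.0116) but not with DESeq2, and Smarca4, a chromatin remodeller, was higher with both (0.39 ± 0.09, 0.00558).

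In Gcg-only cells, with the lowest Neat1 level, Hnrnpa1 was the only member past the threshold (0.51 ± 0.16 SE, adjusted p = 0.0368), and neither DESeq2 nor the fit without TMM scaling called it, while a replicate block called Taf15 as well. Rbm14 was lower in Ppy-only cells (-0.72 ± 0.21, 0.041). In Sst-only cells Nudt21, a cleavage factor of polyadenylation, was higher (68.8 and 61.0 against 30.2 to 41.6, 0.83 ± 0.24, 0.0364) and Smarca4 lower (-0.40 ± 0.11, 0.0269). DESeq2 called 0 members in Sst-only and 0 in Ppy-only cells.

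Small nucleolar RNA host genes were compared because Snhg11 is counted among them, and 17 of 19 were tested. In insulin-only cells 0 were higher and 7 lower (median log2 fold -0.43), in Gcg-only cells 6 were higher and 1 lower (0.57), in Ppy-only cells 5 were higher and 0 lower (0.46), and in Sst-only cells 0 passed, also with DESeq2. Snhg8 had 60.7 and 59.1 in insulin-only cells against 129 to 213 (-1.51 ± 0.16 SE, edgeR adjusted p = 4.94e-06). Dancr was lower there (4.10 and 5.95 against 6.66 to 23.7, -1.54 ± 0.39, 0.00862) and higher in Gcg-only cells (21.6 and 20.05, 1.13 ± 0.31, 0.0219), a call lost with DESeq2, which called 4 host genes higher there.

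Zfas1 rose in the same cells to 189 and 222 against 86.4 to 159 (0.84 ± 0.11 SE, adjusted p = 7.99e-05). Snhg18 had 80.6 and 68.0 in Ppy-only cells against 9.62 to 26.6 (2.07 ± 0.20, 6.12e-06), and was the single host gene lower in Gcg-only cells (9.62 and 12.9, -1.51 ± 0.24, 0.000397). Snhg1 was higher in Ppy-only cells (0.92 ± 0.15, 0.000677). The mean Snhg11 levels given above were, among the 4 single-hormone groups, lowest in insulin-only and highest in Gcg-only cells. The lowest place did not hold in library 2, where Sst-only cells had 124 and insulin-only cells 136.

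Among 10 tested of 12 other long noncoding RNAs, few passed the threshold. Peg13 had 61.1 and 57.8 in insulin-only cells against 11.5 to 55.5 (log2 fold 0.99 ± 0.17 SE, edgeR adjusted p = 0.00052) and 11.5 and 15.4 in Gcg-only cells (-1.91 ± 0.21, 1.12e-05). Mirg was lower in Gcg-only cells (-0.85 ± 0.24, 0.024) and Kcnq1ot1 in Ppy-only cells (486 and 472 against 573 to 867, -0.54 ± 0.14, 0.0263). Pvt1 was called higher in Gcg-only cells, but its levels were 5.003 and 5.37 there and 0 to 3.47 elsewhere. Of the 3 proteins known to bind Miat RNA, Sf1, Qk and Celf3, 0 passed in any of these comparisons with edgeR or DESeq2, and 0 had an unadjusted p under 0.05.

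**Figure D4:**
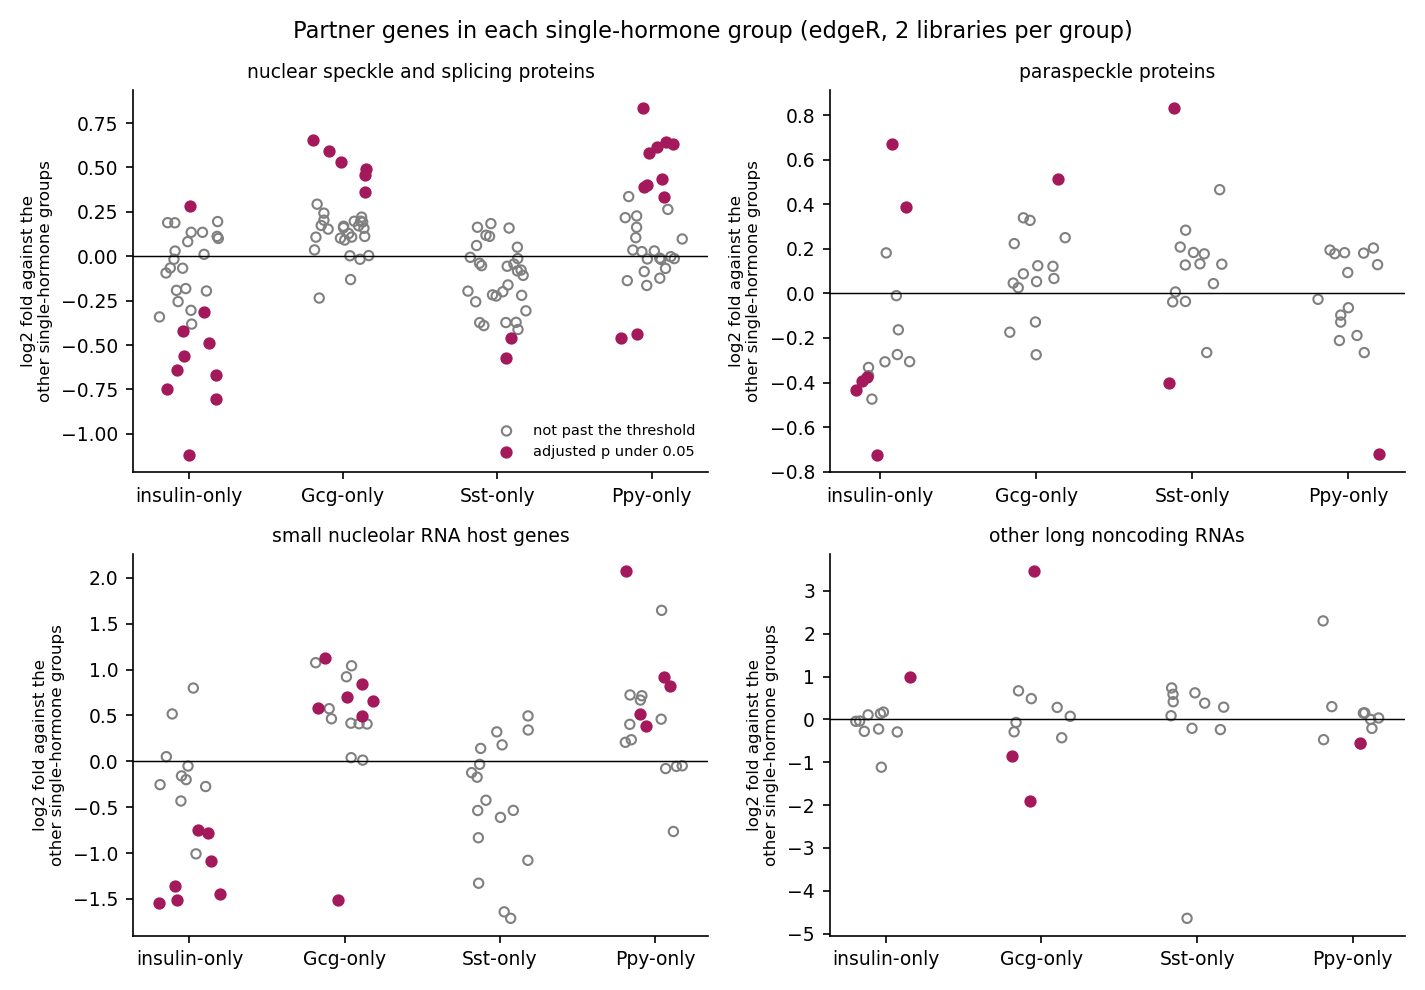
Log2 fold (y axis) of each tested gene of 4 lists in a single-hormone group against the mean of the other single-hormone groups (x axis), from edgeR on 2 libraries per group, with filled points past an adjusted p of 0.05. Filled points lie mostly below 0 for insulin-only cells and above 0 for Gcg-only and Ppy-only cells among speckle proteins (9 of 10, 6 of 6 and 9 of 11) and host genes (7 of 7, 6 of 7 and 5 of 5).

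Within Gcg-only cells the lists were compared between the same sets of cells as the RNAs. Between deep and shallow cells, edgeR called 0% of 11318 genes (663 had an unadjusted p under 0.05, DESeq2 called 0 as well, and edgeR with a replicate block called 6). Between cells of high and low mitochondrial share it called 2.88% of 11382 genes (1.01% higher, 1.87% lower). Of these, 115 were higher and 213 lower with TMM scaling, 212 and 122 without it, and 19 and 112 with DESeq2. Speckle and splicing proteins had 4 higher and 0 lower members of 31 (median log2 fold 0.19 against 0.01), in the cells where Malat1 was also higher. Srsf5 had 659 and 635 against 382 to 428 (0.60 ± 0.09 SE, edgeR adjusted p = 2.15e-05), Srsf2 52.4 and 67.0 against 21.6 to 29.8 (1.14 ± 0.26, 0.00516). Among paraspeckle proteins Cpsf6 alone passed, at 126 and 118 against 72.9 to 73.9 (0.66 ± 0.16, 0.0123). DESeq2 kept 1 of the speckle proteins, Srsf5, with 23 of 31 left after its own filter, and 0 of 8 paraspeckle proteins. No host gene, Miat binder or other long noncoding RNA passed in the main edgeR fit or with DESeq2. Zfas1 was called lower with a replicate block and Rian higher without TMM scaling.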

How the data were processed

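For each library the deposited counts are whole numbers of deduplicated UMIs, by gene and cell barcode. Per the methods, Cytonaut selected barcodes above a knee with UMI-tools and aligned reads to exons of GRCm38 with Ensembl annotation, so reads in introns were not counted. Sequences and positions were taken from GENCODE M21. The 4 RNAs, marker lists and partner lists were chosen with earlier results of these data known.

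Cells were used as deposited: 0 had under 200 genes or over 20% mitochondrial UMIs. Scrublet (scanpy 1.11.5) marked 8 cells in each library, which were kept. Group sums entered edgeR 4.0.16 under R 4.3.3 (filterByExpr, TMM, glmQLFit, glmQLFTest, Benjamini-Hochberg over all genes tested, threshold 0.05, 7 residual degrees of freedom for groups and 2 for cells split at a median), without hormone genes and, for splits by mitochondrial share, without mitochondrial genes. The fit was tested on simulated counts with 1 spread for all genes, set below the spread estimated for the group sums. That test does not give the error rate in these data. In each list the 2 largest rises and the 2 largest falls past the threshold are named. Endothelial and leukocyte lists split cells without a hormone at 0.1% of UMIs. Cells were thinned with a fixed seed. Intervals cover counting error only. DESeq2 1.42.0, no scaling, no filter, a replicate block, a 5% hormone threshold, all UMIs as the total, medians, thinning, doublet removal and leaving out libraries were tried.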

Additional observations from a re-analysis of the deposited data

Results flagged for a closer look

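Malat1, Neat1 and Snhg11 were each searched over all 21 pairs of the 7 compared groups, by depth and by mitochondrial share. Miat was left out. In 23 cases the log2 ratio of cells above to cells below the group's median had opposite signs in a pair, with both libraries of each group on the same side. Signs alone decided, so values near 0 count. How many such cases random signs would give was not computed. These differences were not tested, each group had 2 libraries, and neighbouring pairs share a group.

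Malat1 was higher in the deeper cells of the groups Gcg and Ppy (mean log2 ratio 0.38), Gcg only (0.21) and insulin only (0.08). It was lower in those of Sst-only cells (-0.23), a distance of 0.62, 0.44 and 0.32, and in those of cells without a hormone (-0.40), a distance of 0.78, 0.61 and 0.48. In library 1, insulin-only (0.02) and Sst-only cells (-0.06) were nearly level by depth. By mitochondrial share, Malat1 was higher above the median in all 6 groups with a hormone, though barely in Sst and Ppy cells of library 2 (0.03). It was lower in cells without a hormone (-0.71). The distance to the latter was 1.00 for Gcg and Ppy, 0.98 for Gcg only, 0.94 for Ppy only, 0.92 for insulin only, 0.87 for Sst only and 0.85 for Sst and Ppy. Neat1 was likewise lower above the median share in cells without a hormone (-0.39), at a distance of 0.99 from Gcg-only, 0.78 from insulin-only and 0.55 from Ppy-only cells.

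Snhg11 was higher in the deeper cells without a hormone (4.39), at a distance of 6.15 from Sst-only and 4.43 from Sst and Ppy cells, and the 2 deep cells that hold most of its UMIs there are among them. By mitochondrial share it was higher in Ppy-only (1.31), Sst and Ppy (0.96) and insulin-only cells (0.55) and lower in Sst-only cells (-0.62), a distance of 1.93, 1.58 and 1.17. Cells with Gcg and Ppy, lower in library 1 (-2.65) and nearly level in library 2, lay 2.63, 2.28 and 1.87 from the same groups. Sst-only cells numbered 35 and 23, and held 92 and 37 Snhg11 UMIs.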

How the results depend on the processing

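Malat1 in Gcg-only against insulin-only cells turned from a log2 ratio of -0.14 to 0.17 with all UMIs as the total. With that total Snhg11 in the same comparison went from 1.43 to 1.75, Malat1 in Ppy-only against Gcg-only cells from 0.82 to 0.60, and Malat1 in deep against shallow Gcg-only cells from 0.21 to 0.17. A 5% threshold gave 1.53 for Snhg11 and 0.23 for Malat1 by depth. Thinning gave 0.0899 for Malat1 by depth, -0.84 (from 0.09) for Neat1 by depth and 0.10 (from 0.60) for Neat1 by mitochondrial share. Cells of 10000 to 20000 UMIs, a range chosen after seeing the data, gave 2.11 for Neat1 in Ppy-only against Gcg-only cells (from 1.68). DESeq2 called 131 genes by mitochondrial share in place of 328. By depth, 0 calls became 15 without the filter. The causes were not tested. The remaining 80 values with both libraries moved by less than the spread between libraries, the counting interval or 1.5 times.

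Leaving out a library gave -0.27 to -0.02 for Malat1, -2.57 to -1.94 for Neat1, 1.37 to 1.5 for Snhg11 and 2.85 for Miat (1 library had no ratio) in Gcg-only against insulin-only cells. By depth it gave 0.20 to 0.22, -0.02 to 0.21, -0.37 to 0.64 and -0.35, and by mitochondrial share 0.22 to 0.33, 0.27 to 0.93, -0.24 to 1.197 and 2.26, in the same order. Malat1 in Ppy-only cells gave 0.47 to 0.87 against insulin-only and 0.74 to 0.89 against Gcg-only cells, and Neat1 1.41 to 1.96 against Gcg-only cells. The group with the highest level was kept by 3 of the 4 RNAs without library 1 (not Snhg11, then highest in cells with Gcg and Ppy), without library 2 (not Miat, then in cells with Sst and Ppy) and with all UMIs as the total (not Malat1, then in Sst-only cells). Leaving out a sum left 1843 to 3152 genes called for insulin-only, 1034 to 2163 for Gcg-only, 753 to 1340 for Sst-only and 477 to 1325 for Ppy-only cells, with the lone sum of a group assumed to vary like the others, 3 to 15 by depth and 200 to 224 by mitochondrial share.

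Same-numbered sums are cells of 1 library, and all come from 1 preparation. Their deviations had r from -0.0736 to 0.129 over 21 pairs of groups, of which 3 were over 0.1, so the fits without a block were kept. With a replicate block, the counts were 3436, 2334, 1486, 1415, 6 and 370 in place of 3485, 2350, 1556, 1435, 0 and 328. Medians over cells gave no ratio for Neat1, Snhg11 and Miat, where a median was 0. Miat could not be thinned to a ratio. With 2 libraries of 1 preparation, differences between animals were outside these data.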
